A study of Mus musculus with 9 samples.

Results

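Matrix metalloproteinases (MMPs) and the tissue inhibitors of metalloproteinases (TIMPs) were followed in cultured mouse synovial fibroblasts (SFs) by 3′ mRNA sequencing. The genes were taken by symbol and are Mmp2, Mmp3, Mmp9, Mmp10, Mmp12, Mmp13, Mmp14, Timp1, Timp2 and Timp3, which make 10 of the 49548 genes measured. All 10 were above 0 in at least 1 library of every comparison, so none was lost to the filter. The cells were taken from ankles of mice on a CBA C57BL/6J background, aged 8 weeks, and formed 3 groups of 3 libraries. They were WT SFs, SFs from hTNFtg mice, which carry a human TNF transgene and develop arthritis, and hTNFtg SFs given infliximab, an antibody to TNF, at 1 µg/mL for 48 hours. By the labels the WT SFs and the hTNFtg SFs without infliximab were left untreated, but by the methods they received vehicle for 48 hours. Cells positive for CD45 were depleted at passage 1. Whether a replicate stands for a single animal or a pool was not stated, and p-values measure the spread between these cultures. The human transgene was not analysed here, and the same 3 untreated hTNFtg libraries entered the comparison with WT and the comparison with infliximab.

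MMPs are zinc-dependent proteases that cut extracellular matrix. They are made as inactive proenzymes and are activated when a propeptide is removed, often by another MMP or a serine protease. TIMPs bind the active site of MMPs and block it. In the arthritic joint SFs of the synovial lining are a known source of both, and an excess of protease over inhibitor is associated with loss of cartilage. Stromelysins such as Mmp3 and Mmp10 cut proteoglycans and activate other MMPs, collagenases such as Mmp13 open fibrillar collagen, gelatinases (Mmp2 and Mmp9) degrade denatured collagen, Mmp12 is an elastase known from macrophages, and Mmp14 is anchored in the cell membrane, where it activates pro-Mmp2.

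Values are normalized counts, that is reads per gene after the authors scaled each library by a single factor, rounded to whole numbers. In 3′ sequencing a transcript gives about the same number of reads whatever its length, so no division by length was made. Libraries held approximately 3829156 to 9015457 reads on genes, with the exception of hTNFtg replicate 1, which held 613343. In that library 1 read was worth 6.23 normalized counts, against 0.534 to 1.10 in the other 8, and low values there are coarse. The summed level of 12 SF markers lay between 36157 and 53147 in all 9 libraries, most of it from Col1a1, Col1a2 and Vim. Within this list Pdpn was raised and Lum was lowered in both hTNFtg groups against WT, with group means in WT and untreated hTNFtg of 925 and 4088 for Pdpn and of 811 and 213 for Lum. Among 6 endothelial markers the sum stayed at 2 to 12. The sum of 9 neutrophil markers was 736 to 1077 in WT, 608 to 1077 in untreated hTNFtg and 710 to 979 in infliximab-treated SFs, of which Elane alone made 519 to 1024, while Ly6g and S100a9 were at 0 in all libraries. Camp, another of the 9, was raised in both hTNFtg groups against WT and lowered with infliximab against untreated hTNFtg, and Cxcr2 was raised in treated hTNFtg SFs against WT (limma unadjusted P under 0.05 and a change of 1 or more on the log2 scale). The sum of 13 macrophage markers, however, was 203 to 768 in WT, 3324 to 7080 in untreated hTNFtg and 2191 to 4565 in infliximab-treated SFs. In bulk RNA, fewer cells of a type and less RNA per cell cannot be told apart.

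Across the family, 5 of the 10 genes were raised in hTNFtg SFs relative to WT, namely Mmp3, Mmp9, Mmp10, Mmp12 and Timp1, and none was lowered. A gene was called raised or lowered here when its log2 fold change was at least 1 in size with an unadjusted P under 0.05 in limma. Of all 28522 genes tested, 3.35% were raised and 3.04% were lowered. With adjustment over all genes by the Benjamini-Hochberg method, Mmp3 alone of the 10 stood under 0.05, a level reached by 0.48% of genes. The edgeR quasi-likelihood test on approximate reads put Mmp3 and Mmp12 under that level, with 2.17% of genes. After infliximab, 3 of the 10, Mmp3, Mmp10 and Mmp12, were lowered against untreated hTNFtg and none was raised, where 0.936% of 28540 genes were lowered and 1.49% were raised. One of these calls, Mmp10, entered that test through the few reads of the untreated libraries alone. No gene of any kind reached an adjusted p under 0.05 in limma in that comparison, although 1026 genes had an unadjusted P under 0.05 and edgeR on approximate reads called 9 (0.0315%). Infliximab-treated hTNFtg SFs set against WT had 3 of the 10 raised, Mmp3, Mmp9 and Mmp12, with 3.86% of 28243 genes raised and 2.95% lowered. Here too Mmp3 alone had an adjusted p under 0.05 in limma, as did 0.74% of genes, whereas edgeR on approximate reads put Mmp3, Mmp12 and Timp3 under that level, with 3.64% of genes. The median log2 fold change over the 10 was 0.92, -0.70 and 0.63 in the 3 comparisons, against medians of about 0 over all genes. With Mmp10, whose reads were too few for a fold in some groups, set to its bound or to 0, the medians were 0.89, -0.70 and 0.63.

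**Figure D1:**
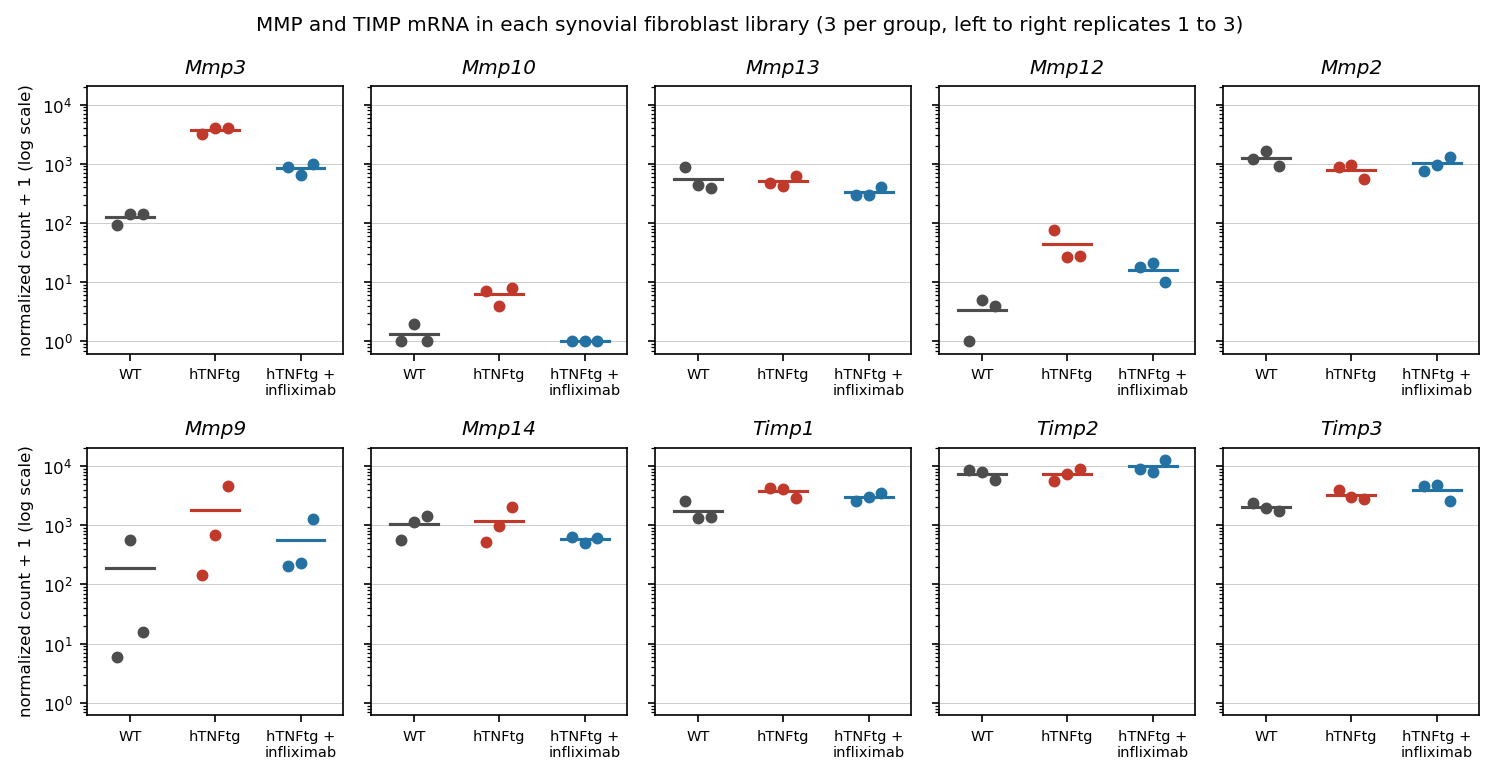
Normalized count plus 1 (log scale) of the 10 genes in each of the 9 libraries, with points for replicates 1 to 3 from left to right and a bar at the group mean. Mmp3 separates the 3 groups without overlap, from 90 to 141 in WT to 3170 to 4079 in untreated hTNFtg, whereas Mmp9 spans 5 to 554 within WT alone.

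Mmp3, Mmp10, Mmp12 and Mmp13 lie in a single cluster on chromosome 9, and the bases in front of each gene are shown because these neighbours behaved differently. In the RefSeq promoter windows (GRCm38.p6; 250 bases before to 50 after the gene start), 8 of the 10 genes had an entry, the exceptions being Mmp2 and Mmp9. The letters TGANTCA, an AP-1 motif that reads the same on both strands, were present in windows of 4 of these 8 genes, namely these 4. The 8 genes had 9 windows, of which Mmp12 had 2. Counted per window and not per gene, the letters were held by 7.81% of 32851 windows of all genes. The lines give the 150 bases before each start on the plus strand, with AP-1 and TATAAA letters in capitals.
Mmp13, chr9:7272364-7272513: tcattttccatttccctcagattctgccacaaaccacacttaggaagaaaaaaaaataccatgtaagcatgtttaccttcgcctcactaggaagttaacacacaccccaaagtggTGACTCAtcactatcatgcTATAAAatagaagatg
Mmp12, chr9:7347224-7347373: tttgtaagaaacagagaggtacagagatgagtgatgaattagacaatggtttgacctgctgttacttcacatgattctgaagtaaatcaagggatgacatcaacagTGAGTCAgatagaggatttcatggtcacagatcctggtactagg
Mmp3, chr9:7445672-7445821: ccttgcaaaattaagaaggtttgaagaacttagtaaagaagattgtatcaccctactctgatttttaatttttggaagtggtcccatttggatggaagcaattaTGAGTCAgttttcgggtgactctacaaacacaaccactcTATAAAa
Mmp10, chr9:7502192-7502341: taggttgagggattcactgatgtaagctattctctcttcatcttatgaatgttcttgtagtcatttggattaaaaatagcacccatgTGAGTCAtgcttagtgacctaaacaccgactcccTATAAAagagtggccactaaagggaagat
None of these stretches overlapped an annotated exon, and the Mmp12 stretch precedes the downstream of its 2 listed starts, inside the gene. The AP-1 letters began 35 bases before the start in Mmp13, 44 in Mmp12, 46 in Mmp3 and 63 in Mmp10. The window of the upstream Mmp12 start held no AP-1 match. TATAAA on the gene's strand, held by 8.32% of all windows, began 7 bases before the start in Mmp3, 16 in Mmp13 and 29 in Mmp10. In the Mmp12 window it lay 4 bases after the start. No NF-kB consensus, read on both strands and present in 4.51% of all windows, was found in the windows of the 8 genes. AGGAAG, a PEA3 motif searched on both strands and held by 35.4% of windows, matched in windows of Mmp3, Mmp12, Mmp13, Mmp14, Timp1 and Timp3. Among the other family genes, AP-1 letters were found for Mmp1a, Mmp1b, Mmp7 and Mmp20, which belong to the same chromosome 9 cluster, and for none of the other 10 with an entry, among them Mmp8 and Mmp27 of the cluster. These matches describe letters only, and the motifs were picked because MMP promoters are known for them.

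The stromelysin Mmp3 (chr9:7445822-7455975) stood at 90, 140 and 141 in WT replicates 1, 2 and 3. It was at 3170, 4055 and 4079 in untreated hTNFtg. With infliximab it was at 865, 642 and 1004. The 3 groups did not overlap, and the infliximab libraries lay between the other 2 groups. The log2 fold change of Mmp3 was 4.94 ± 0.31 (SE) in hTNFtg versus WT, with an adjusted p of 3.82e-05 in limma, and stayed at 4.73 to 5.06 with any library left out. The adjusted p without WT replicate 2 was 0.0505. Infliximab lowered Mmp3 by a log2 fold change of -2.18 ± 0.33, with an unadjusted P of 1.74e-05 and an adjusted p of 0.165 in limma. The edgeR quasi-likelihood test on approximate reads gave -2.13 for the same change with an adjusted p of 0.0178. What remained after infliximab was still 2.75 ± 0.24 on the log2 scale above WT, with an adjusted p of 0.00463 in limma, which became 0.0819 to 0.335 when a library was left out. Mmp3 was also among the more even members, with a within-group SD of 0.31 on the log2 scale against a median of 0.47 over 13600 genes of mean 10 or more.

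Mmp10 (chr9:7502352-7510240), the second stromelysin, is known to share much of the substrate range of Mmp3 and was measured at very few reads. It was at 0, 1 and 0 in WT, at 6, 3 and 7 in untreated hTNFtg and at 0 in the 3 infliximab libraries. The hTNFtg libraries lay above all others, although the values stood for approximately 1, 4 and 13 reads. The Poisson 95% interval of the 1 read in replicate 1 ran from 0.158 to 34.7 normalized counts. WT libraries all had at most 3 reads, so the level in hTNFtg was at least 2.11-fold higher than the WT group mean of that limit. In the same way Mmp10 was at least 1.94-fold lower with infliximab. At 0 in all treated libraries, Mmp10 entered the infliximab test through the untreated group alone. Between infliximab-treated SFs and WT both groups were within that limit, so no fold is given.

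The collagenase Mmp13 (chr9:7272514-7283331) was measured at 293 or more normalized counts in every library and did not pass the threshold in any comparison. WT replicates had 871, 429 and 384. Untreated hTNFtg SFs had 473, 414 and 615, all within the range of WT. Infliximab-treated SFs had 293, 298 and 399, and these 3 lay below all untreated hTNFtg libraries. Non-overlap in this direction was seen for 3.44% of all genes, and for 4 of the 10 here (Mmp3, Mmp10, Mmp12 and Mmp13). The log2 fold change of Mmp13 was -0.08 in hTNFtg versus WT, with a 95% interval of -0.87 to 0.70, and its sign turned without WT replicate 1 (0.28) or hTNFtg replicate 2 (0.043). With infliximab it was -0.59 ± 0.29 (limma unadjusted P = 0.0571, adjusted p = 0.803). Treated hTNFtg SFs against WT had a change of -0.68 ± 0.30 (limma unadjusted P = 0.0474, adjusted p = 0.409), under the size required, and edgeR on approximate reads gave -0.73 with an unadjusted P of 0.00983. Of the 4 genes whose sequences are shown, Mmp3, Mmp10 and Mmp12 were called raised in hTNFtg SFs and Mmp13 was not.

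The elastase Mmp12 (chr9:7344381-7369499) was low but rose in hTNFtg SFs. It was at 0, 4 and 3 in WT, at 75, 26 and 27 in untreated hTNFtg and at 17, 20 and 9 with infliximab. No group overlapped another. The 75 in hTNFtg replicate 1 stood for approximately 12 reads, with a Poisson 95% interval of 38.6 to 130.6. The log2 fold change was 3.83 ± 0.85 in hTNFtg versus WT (limma adjusted p = 0.0959) and 3.34 without hTNFtg replicate 1. With any library left out it ran from 3.11 (without WT replicate 1) to 4.27 (without WT replicate 2). A pseudocount of 5 gave 2.59 and a pseudocount of 0.5 gave 4.26. edgeR on approximate reads gave 3.71 with an adjusted p of 0.00361. Infliximab lowered Mmp12 by -1.31 ± 0.58 on the log2 scale (limma unadjusted P = 0.0421, adjusted p = 0.803). This change became -0.82 without hTNFtg replicate 1, -1.41, -1.52 and -0.99 without infliximab replicates 1, 2 and 3, and passed the threshold in none of these 4 cases. It was also short of it with a pseudocount of 5 (-1.12), with array quality weights (-0.81) and with all 9 libraries in a single fit (limma unadjusted P = 0.104). Against WT, infliximab-treated SFs still had Mmp12 raised by 2.52 ± 0.72 (limma adjusted p = 0.177), and by 1.80 without WT replicate 1. For this comparison edgeR on approximate reads gave 2.56 with an adjusted p of 0.0273.

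The gelatinase Mmp9 (chr2:164940780-164955850) varied widely within each group. WT replicates had 5, 554 and 15. Untreated hTNFtg replicates had 143, 696 and 4533. Infliximab-treated replicates had 202, 226 and 1263, and all groups overlapped. The within-group SD of Mmp9 was 2.59 on the log2 scale, higher than in 99.8% of 13600 genes. The log2 fold change was 4.35 ± 1.48 in hTNFtg versus WT (limma unadjusted P = 0.0132, adjusted p = 0.373) and 3.36 ± 1.40 in infliximab-treated SFs versus WT (limma unadjusted P = 0.0382, adjusted p = 0.379). The first call was lost without WT replicate 1 (3.03), WT replicate 3 (3.74) or hTNFtg replicate 3 (3.07), and with robust eBayes (limma unadjusted P = 0.133). The second was lost without WT replicate 1 (2.04), WT replicate 3 (2.75) or infliximab replicate 1 (3.83), 2 (3.75) or 3 (2.51), with array quality weights (1.77) and with robust eBayes (limma unadjusted P = 0.194). Leaving out other libraries made these changes larger. Without WT replicate 2 the first was 6.29 and the second 5.31. Without hTNFtg replicate 1 the first was 5.56. For infliximab against untreated hTNFtg the change was -0.99 ± 0.96, and its sign turned without hTNFtg replicate 3 (0.29). For Mmp9, edgeR on approximate reads gave 3.19 in hTNFtg versus WT, 1.60 in treated hTNFtg versus WT and -1.64 with infliximab.

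Macrophage and osteoclast markers were compared with Mmp9 within each group. In WT replicate 2, which had the highest Mmp9 of WT, 11 of 13 macrophage and 6 of 8 osteoclast markers had their WT maximum. In hTNFtg replicate 3 this held for 6 of 13 and 7 of 8, and in infliximab replicate 3 for 8 of 13 and 5 of 8. This was not particular to Mmp9, since Mmp3 was highest in the same library of both hTNFtg groups, as were Mmp14 in untreated hTNFtg and Mmp12 in WT. The macrophage marker sum of untreated hTNFtg was 7080, 3324 and 5312 in replicates 1, 2 and 3, of which Lyz2 alone made 5356, 2284 and 2356. Without Lyz2, left out after its values were seen, the sums were 1724, 1040 and 2956. The highest library was thus replicate 1 with Lyz2, where Mmp9 was lowest at 143, and replicate 3 without it, where Mmp9 was highest. Acp5, the tartrate-resistant phosphatase of osteoclasts, was at 7, 96 and 3 in WT, at 174, 110 and 246 in hTNFtg and at 103, 82 and 333 with infliximab. Its highest library in each group was thus that of Mmp9. The osteoclast marker sum was 206 to 393 in WT, 386 to 635 in hTNFtg and 328 to 751 with infliximab, and Dcstamp, a fusion protein of osteoclasts, was at 0, 1 and 0 in WT, at 0, 21 and 30 in hTNFtg and at 2, 8 and 15 with infliximab. Of the 8 osteoclast markers, 3 (Acp5, Atp6v0d2 and Dcstamp) were raised in untreated hTNFtg and 5 (these and Calcr and Ocstamp) in treated hTNFtg relative to WT, where 3.35% and 3.86% of all genes were raised. Calcr was within 3 reads in every WT and treated library and at 0 in WT. It entered the test of treated hTNFtg against WT through the treated libraries alone and is not read as a change. None of the 8 passed the threshold between treated and untreated hTNFtg SFs.

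Macrophage markers as a list moved with the hTNFtg genotype in the same direction as Mmp3, Mmp9, Mmp10 and Mmp12. Of 13, 10 were raised in untreated hTNFtg and 11 in infliximab-treated SFs relative to WT, against 3.35% and 3.86% of all genes. With infliximab, 2 of the 13, C1qb and Itgam, were lowered against untreated hTNFtg (0.936% of all genes), with a median log2 fold change of -0.29 over the list. The ranges of the marker sum in untreated and infliximab-treated libraries overlapped, while those of Mmp3 and Mmp12 did not. Ptprc, which encodes CD45, was at 0, 3 and 0 in WT, at 31, 9 and 12 in hTNFtg and at 28, 8 and 22 with infliximab. Fcgr1 did not move with the list, at 0, 5 and 9 in WT, at 6, 1 and 4 in hTNFtg and at 0, 0 and 3 with infliximab. The sum of 9 chondrocyte markers went the other way, at 6470 to 9741 in WT, 866 to 1544 in untreated hTNFtg and 1205 to 2929 with infliximab. Most of it came from Comp and Sox9. Group means in WT and untreated hTNFtg were 5671 and 566 for Comp and 1620 and 208 for Sox9. In hTNFtg versus WT, 4 of the 8 testable were lowered (Acan, Col9a1, Comp and Sox9; 3.04% of all genes). Col2a1, Col11a1, Col10a1 and Hapln1 did not pass the threshold in hTNFtg versus WT, with log2 fold changes of -0.08, -0.02, -0.29 and -2.04. Col9a1 was at 0 in the 3 untreated hTNFtg libraries and entered that test through WT alone. With infliximab, 2 of 9, Comp and Sox9, were raised against untreated hTNFtg (1.49% of all genes), the fitted change was above 0 in all 9 and the median log2 fold change was 0.44, or 0.19 with genes of very few reads set to their bound or to 0. Acan, Col9a1, Comp and Sox9 were also lowered in treated hTNFtg against WT (2.95% of all genes). Acan, the main cartilage proteoglycan, was at 0 in replicates 1 and 3 of both hTNFtg groups. Whether these marker changes stand for changes in cell numbers was not tested, nor was the part of such cells in the MMP values.

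**Figure D2:**
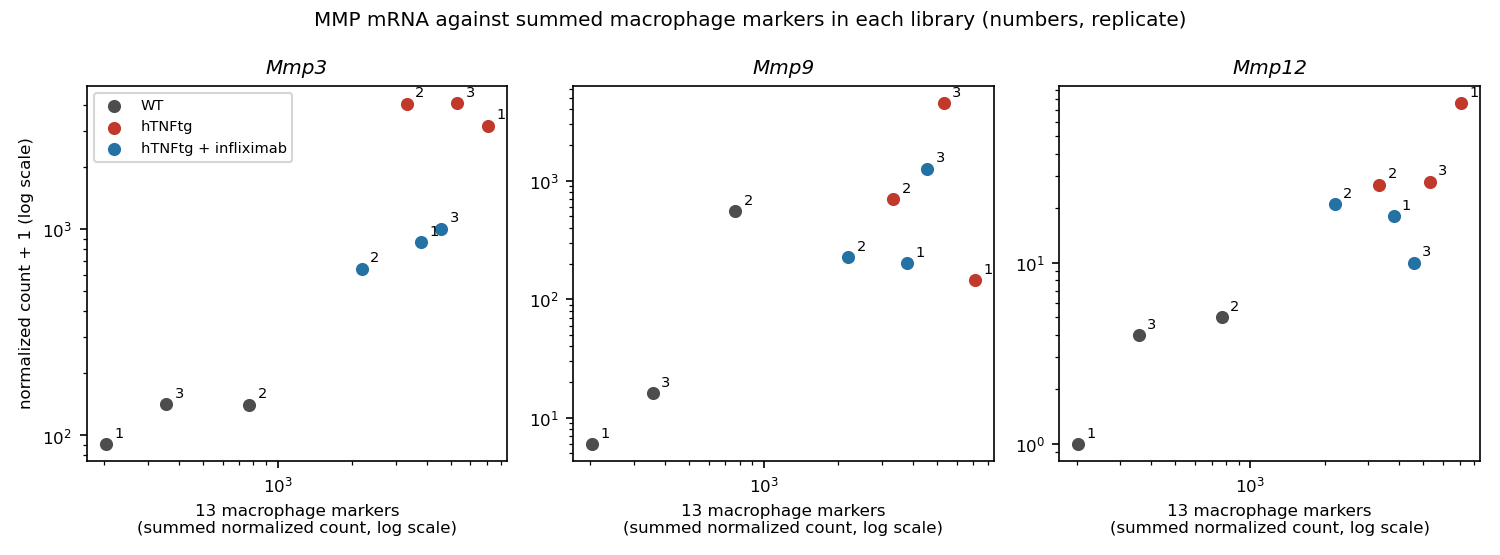
Normalized count plus 1 of Mmp3, Mmp9 and Mmp12 against the summed normalized count of 13 macrophage markers, both on log scales, with 1 point per library, colours for groups and numbers for replicates. At marker sums of 2191 to 4565 the infliximab libraries hold 642 to 1004 of Mmp3, whereas the untreated hTNFtg libraries hold 3170 to 4079 at 3324 to 7080.

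The gelatinase Mmp2 (chr8:92827291-92853420), by contrast with Mmp9, was even. It was at 1196, 1669 and 916 in WT, at 872, 938 and 559 in untreated hTNFtg and at 762, 967 and 1316 with infliximab. The groups overlapped. Its log2 fold change was -0.67 in hTNFtg versus WT, with a 95% interval of -1.43 to 0.10, and 0.36 with infliximab, with an interval of -0.35 to 1.07. Neither passed the threshold (limma unadjusted P = 0.0822 and 0.291). Treated hTNFtg SFs against WT gave -0.30 for Mmp2, with an interval of -0.91 to 0.30 (limma unadjusted P = 0.286).

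Mmp14 (chr14:54431612-54441265), the membrane-bound activator of pro-Mmp2, was at 573, 1117 and 1441 in WT and at 511, 973 and 2058 in untreated hTNFtg. With infliximab it was at 626, 495 and 608. The treated libraries were close to each other, and the lowest untreated hTNFtg library lay within their range. For hTNFtg versus WT the log2 fold change of Mmp14 was 0.05, with a 95% interval of -1.06 to 1.16. With infliximab it was -0.81 ± 0.42 against untreated hTNFtg (limma unadjusted P = 0.076) and -0.76 ± 0.31 against WT (limma unadjusted P = 0.0329), both short of the threshold. Without hTNFtg replicate 1, the shallow library, the change with infliximab was -1.30 and passed it, and edgeR on approximate reads gave -1.01 with an unadjusted P of 0.0192. Without WT replicate 1 the change against WT was -1.14 and also passed.

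**Figure D3:**
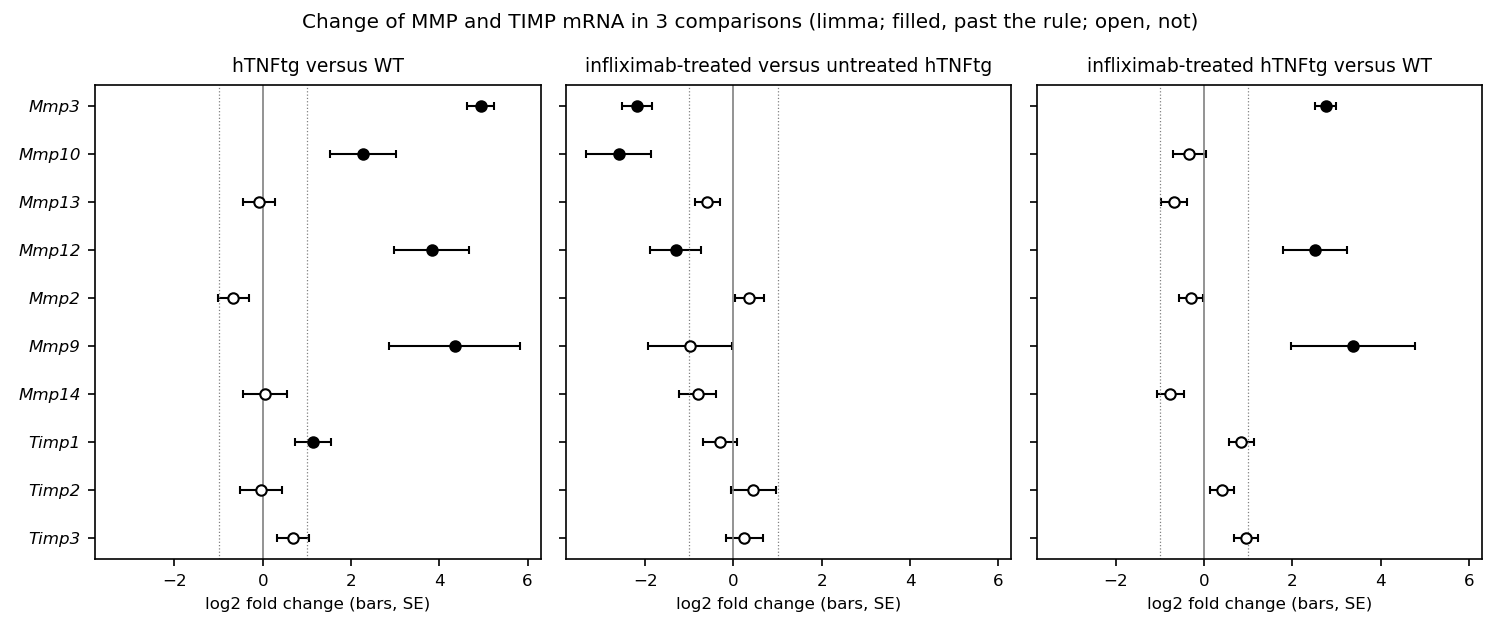
Log2 fold change of normalized counts plus 1 in 3 comparisons (limma, bars are SE), with filled points for genes past the threshold of 1 in size and unadjusted P under 0.05, and open points for the others. Mmp3 lies at 4.94, -2.18 and 2.75, while Timp2 stays within 0.45 of zero in each.

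Timp1 (chrX:20870166-20874735), the inducible inhibitor, was the TIMP that was raised in hTNFtg SFs. It was at 2563, 1305 and 1402 in WT and at 4241, 4088 and 2901 in untreated hTNFtg, without overlap. With infliximab it was at 2551, 3025 and 3520, a range that overlapped both other groups. Timp1 changed by a log2 fold of 1.14 ± 0.40 in hTNFtg versus WT (limma unadjusted P = 0.0152, adjusted p = 0.398). The call was lost without WT replicate 2 (0.96), WT replicate 3 (1.01) or hTNFtg replicate 2 (1.07). With infliximab the change against untreated hTNFtg was -0.30, with a 95% interval of -1.12 to 0.53. Against WT it was 0.84 ± 0.28 (limma unadjusted P = 0.0126), and 1.15 without WT replicate 1, where it passed the threshold.

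Timp3 (chr10:86300372-86349506), which is held in the matrix and also inhibits the sheddase that releases TNF, had its WT libraries below both hTNFtg groups. It was at 2354, 1919 and 1763 in WT, at 4005, 3022 and 2791 in untreated hTNFtg and at 4610, 4772 and 2584 with infliximab. Libraries did not overlap between WT and either hTNFtg group, and the same held for Mmp3 and Mmp12 in both comparisons and for Mmp10 and Timp1 in untreated hTNFtg. Among all genes tested, 5.63% were higher without overlap in untreated hTNFtg and 7.14% in infliximab-treated SFs. Its log2 fold change was 0.69 ± 0.36 for hTNFtg versus WT (limma unadjusted P = 0.0796) and 0.94 ± 0.27 for infliximab-treated SFs versus WT (limma unadjusted P = 0.00577, adjusted p = 0.172), both under the size required. The second passed the threshold without WT replicate 1 (1.06) or infliximab replicate 3 (1.23), with quantile normalization (1.09), with array quality weights (1.05) and in edgeR on approximate reads (1.00, adjusted p = 0.00756). Between treated and untreated hTNFtg SFs it was 0.25, with a 95% interval of -0.63 to 1.14. Timp3 lies within Syn3, a gene on the opposite strand, whose count was 14.9% to 30.5% of that of Timp3 in the 9 libraries. Timp1 likewise lies within Syn1, at 5.14% to 14.9% of Timp1. Synapsins are known from neurons, and the use of strand in counting was not stated, so reads of these overlapping genes cannot be told apart here.

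Timp2 (chr11:118301069-118355740), which takes part in the activation of pro-Mmp2 by Mmp14, was the highest of the 10 in all 9 libraries. It was at 8556, 7980 and 5878 in WT, at 5549, 7326 and 9069 in untreated hTNFtg and at 9076, 8060 and 12812 with infliximab. The groups overlapped. For Timp2 the log2 fold change was -0.04, 0.45 and 0.41 in the 3 comparisons, none past the threshold, and the first had a 95% interval of -1.09 to 1.01.

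Summed over the 7 MMPs, normalized counts were 2735, 3914 and 2900 in WT, 5250, 7105 and 11878 in untreated hTNFtg and 2765, 2648 and 4599 with infliximab. The untreated hTNFtg libraries were above all others, and the treated ones spanned the WT range. Without Mmp3 the sums were 2645 to 3774, 2080 to 7799 and 1900 to 3595, and the groups overlapped. Mmp3 made up 3.29% to 4.86% of the MMP sum in WT, 34.3% to 60.4% in untreated hTNFtg and 21.8% to 31.3% with infliximab. In WT the largest share was that of Mmp2 in replicates 1 and 2 (43.7% and 42.6%) and that of Mmp14 in replicate 3 (49.7%). In hTNFtg replicate 3, Mmp9 alone took 38.2%. The infliximab libraries thus spanned the WT range of MMP sums, with replicate 3 above it, and held a larger share of Mmp3 than WT.

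The 3 TIMPs summed to 13473, 11204 and 9043 in WT, to 13795, 14436 and 14761 in untreated hTNFtg and to 16237, 15857 and 18916 with infliximab. Summed TIMP over summed MMP counts gave ratios of 4.93, 2.86 and 3.12 in WT, 2.63, 2.03 and 1.24 in untreated hTNFtg and 5.87, 5.99 and 4.11 with infliximab. Untreated hTNFtg SFs had the lowest ratios without overlap. The ratio of Timp1 to Mmp3 was 9.32 to 28.5 in WT, 0.711 to 1.34 in untreated hTNFtg and 2.95 to 4.71 with infliximab. These ratios compare mRNA and say nothing of protein or of activity.

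**Figure D4:**
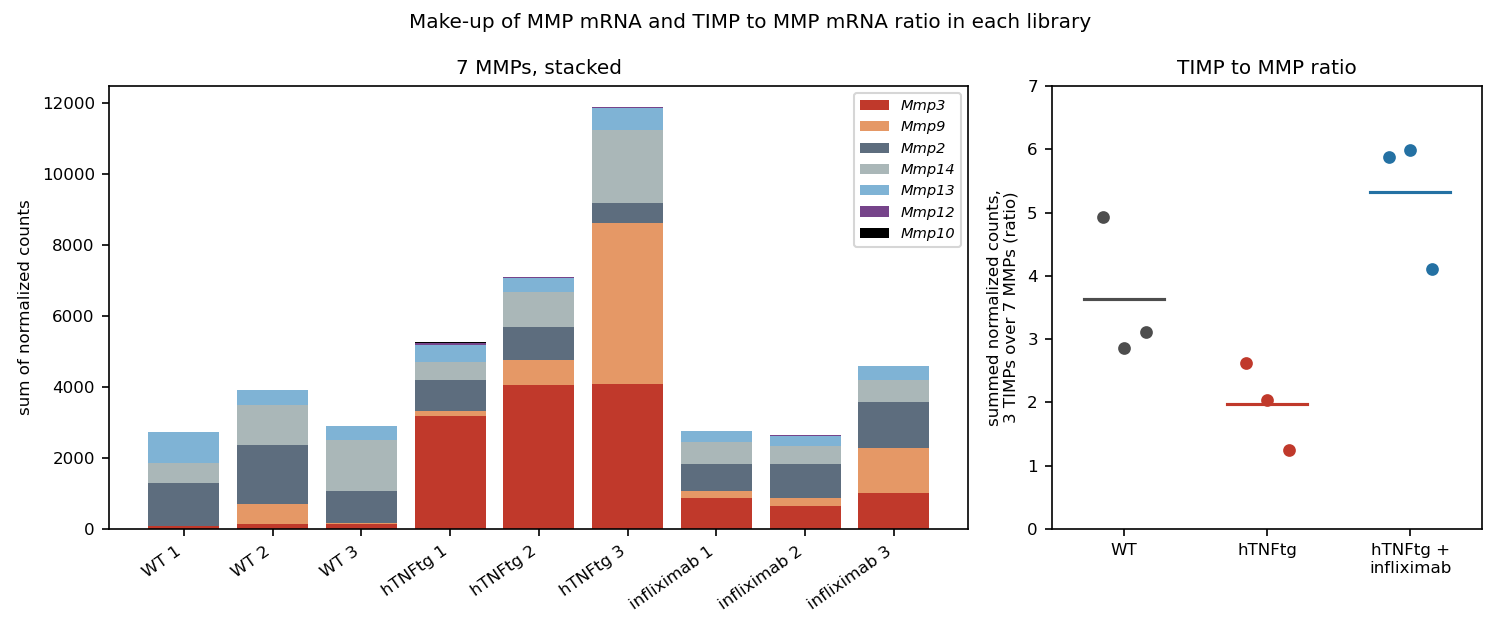
Left, normalized counts of 7 MMPs stacked for each library; right, ratio of the summed counts of 3 TIMPs to those of 7 MMPs, with points for libraries and bars for group means. Mmp3 fills 34.3% to 60.4% of the untreated hTNFtg columns, and the ratio there is 1.24 to 2.63.

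Outside the 10, 17 further MMP and TIMP genes were examined. In hTNFtg versus WT, Mmp1b was raised and Timp4 was lowered, out of 15 that could be tested, against 3.35% raised and 3.04% lowered of all genes. The same held in treated hTNFtg versus WT, out of 15 tested, against 3.86% raised and 2.95% lowered of all genes. There edgeR on approximate reads put 2 under an adjusted p of 0.05, with 3.64% of genes. With infliximab 1 of 16, Mmp21, was raised and none was lowered, against 1.49% and 0.936% of all genes. Mmp1b, a mouse relative of interstitial collagenase next to Mmp12, was at 0 in the 3 WT libraries, at 6, 7 and 4 in untreated hTNFtg and at 4, 4 and 10 with infliximab. It was thus at least 2.25-fold higher in untreated and at least 2.38-fold higher in treated hTNFtg SFs. Its values in untreated hTNFtg stood for approximately 1, 8 and 7 reads, with a Poisson 95% interval of 0.158 to 34.7 normalized counts for the 1 read in replicate 1, and Mmp1b entered the test against WT through the hTNFtg libraries alone. The treated and untreated libraries of Mmp1b overlapped, with a log2 fold change of -0.01 ± 0.85, whereas those of Mmp3, Mmp10 and Mmp12 did not. Mmp1b and Mmp12 overlap on opposite strands at their ends. Timp4 was at 3, 3 and 23 in WT, at 0, 3 and 0 in untreated hTNFtg and at 0, 0 and 1 with infliximab, with WT replicate 3 above the other 8 libraries. Mmp21 passed the threshold with infliximab at 1 normalized count in each treated library and 0 in each untreated one. Both groups were within 3 reads, and Mmp21 entered that test through the treated libraries alone. Mmp1a was at 0 in all 9 libraries.

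Of 14 activators, inhibitors and receptors of MMPs, 1 was raised and 1 lowered in hTNFtg versus WT (3.35% and 3.04% of all genes). None passed the threshold with infliximab (1.49% raised and 0.936% lowered among all genes), and 2 were raised and 2 lowered in treated hTNFtg versus WT (3.86% and 2.95% of all genes). Cd44, a hyaluronan receptor that holds MMPs at the cell surface, was at 228, 319 and 269 in WT, at 922, 759 and 728 in untreated hTNFtg and at 552, 526 and 605 with infliximab. The 3 groups of Cd44 did not overlap and lay in the order seen for Mmp3. Its log2 fold change was 1.56 ± 0.28 in hTNFtg versus WT (limma adjusted p = 0.0385), -0.51 ± 0.27 with infliximab (limma adjusted p = 0.803) and 1.05 ± 0.18 in treated hTNFtg versus WT (limma adjusted p = 0.0394). Pcsk6, a proprotein convertase of the furin family, was lower in hTNFtg SFs, at 201, 372 and 297 in WT, at 50, 111 and 170 in untreated hTNFtg and at 85, 107 and 56 with infliximab. Its change was -1.51 ± 0.44 in hTNFtg versus WT (limma adjusted p = 0.234) and -1.80 ± 0.30 in treated hTNFtg versus WT (limma adjusted p = 0.0322). Treated hTNFtg SFs also had Lcn2, a partner of Mmp9, lowered against WT (-1.59 ± 0.56), with an adjusted p not under 0.05 in limma. Lcn2 was at 103, 28 and 94 in WT, at 93, 18 and 10 in untreated hTNFtg and at 10, 28 and 32 with infliximab. The WT and treated libraries overlapped. Tfpi2, a serine protease inhibitor of the matrix, was raised in treated hTNFtg SFs against WT from 0, 1 and 1 to 2, 3 and 10, at least 1.98-fold. Treated replicates 1 and 2 of Tfpi2 stood for approximately 2 and 3 reads, within the limit of 3 reads. The bound thus rests on replicate 3 alone, with approximately 14 reads.

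Genes with the pattern most like that of Mmp3 over the 9 libraries, by the root mean square difference of centred log2 values among 13600 genes, were Ccl5 (0.57), Slco2a1 (0.58), Ebi3 (0.60), Npy (0.65) and Kcnn4 (0.66). Slco2a1, a prostaglandin transporter, was at 13, 16 and 21 in WT, at 218, 221 and 206 in untreated hTNFtg and at 103, 76 and 102 with infliximab. Kcnn4, a calcium-activated potassium channel, was at 9, 20 and 10, at 187, 135 and 166 and at 78, 64 and 103 in the same groups. In WT, Ccl5 (3, 4 and 1), Ebi3 (0, 1 and 1) and Npy (2, 1 and 1) were near the limit of 3 reads. Their log2 values in WT depend on the pseudocount of 1. All 5 had the treated libraries between WT and untreated hTNFtg without overlap. This is the order of Mmp3, and the 5 were picked for likeness to it, so it is no separate result. The nearest to Mmp13 were Tmem219 (0.27), Rgs10 (0.28), Gm16867 (0.28), Lrrc61 (0.29) and Rgag4 (0.29). These differences describe likeness in the same 9 libraries, and the genes share their depth and scaling.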

How the data were processed

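RNA with an integrity number above 7 was used for QuantSeq libraries, read on an Ion Proton instrument. As given in the methods and the submitters' processing notes, the authors mapped reads to mm10 with TopHat2, then the remainder with Bowtie2, counted reads per gene with GenomicRanges and normalized with DESeq through metaseqR; versions were not stated. In all 9 libraries the authors scaled the counts by 1 factor per library and rounded them, so the unit is a score. In hTNFtg replicate 1 a read is worth several units, so the deposited signal there gives whole reads back. In 7 libraries a read is worth less than 1 unit, where any whole number lies near a multiple and reads are approximate. Library steps, the normalized counts that 1 read is worth, were estimated by a Poisson likelihood from the frequencies of low values. On simulated data 9 of 9 steps were recovered, and approximate reads follow from the steps. A group was taken as at the limit when each library had at most 3 reads, and folds against it are lower bounds. Intervals and limits cover counting error only.

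The 49548 genes of both tables were joined by identifier. The 3 untreated hTNFtg libraries are in both with 0 differing values. The 12 columns of a further normalized form were not used. The authors' own comparisons (fold changes and p-values) were not used either. limma 3.58.1 (lmFit and eBayes with trend, R 4.3.3) was run on log2-transformed normalized counts (pseudocount 1) in the 6 libraries of a comparison, for genes detected in any of them, so that changes of low genes are understated. On simulated data of hTNFtg versus WT with 27120 genes and 200 changed 4-fold, the threshold on unadjusted P found 94.5% together with 752 unchanged genes, and an adjusted p under 0.05 found 20% with 0. edgeR 4.0.16 (quasi-likelihood, legacy option off) on approximate reads was an alternative. Others were the pseudocount, a mean of at least 10, other scalings and weights, a replicate block, all 9 libraries in a single fit and leaving out each library. All 10 genes were named in every comparison. Of 17 other family genes and 14 regulators, those past the threshold or at 0 throughout were named, and for Mmp3 and Mmp13 the 5 nearest genes. The other marker and neighbour genes were named after their values were seen. Genes and lists were chosen with earlier results of these data known.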

Additional observations from a re-analysis of the deposited data

How the results depend on the processing

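The number of the 10 genes past the threshold was 5 in hTNFtg versus WT, 3 in treated versus untreated hTNFtg SFs and 3 in treated hTNFtg SFs versus WT. With 1 library left out it was 3 to 5, 2 to 3 and 2 to 5, the lowest of the first without WT replicate 3 (Mmp9 and Timp1 lost) and the highest of the last without WT replicate 1 (Mmp14, Timp1 and Timp3 gained, Mmp9 lost). edgeR on approximate reads gave 5 for infliximab-treated versus untreated hTNFtg, with Mmp9 and Mmp14 added, while the lowered genes among all tested went from 267 to 705. It gave 4 for treated hTNFtg versus WT, with Timp3 added. Other settings lost calls. Mmp12 with infliximab was lost with a pseudocount of 5, array quality weights, all 9 libraries and the replicate block, Mmp9 in hTNFtg versus WT with robust eBayes and the block, and Mmp9 in treated hTNFtg versus WT with these and array quality weights, which in turn added Mmp9 with infliximab. The cause was not tested. Changes near zero turned sign in hTNFtg versus WT. Leaving out a library moved Mmp13 from -0.31 to 0.28, Mmp14 from -0.46 to 0.54 and Timp2 from -0.21 to 0.14, array quality weights gave Mmp14 -0.040 and quantile normalization gave Timp2 0.10. For infliximab against untreated hTNFtg, Mmp9 ran from -2.20 to 0.29. Mmp3 kept its direction and passed the threshold in all 3 comparisons under all of these settings. A pseudocount of 5 took Mmp10 to 0.94 in hTNFtg versus WT and off the call. A mean of at least 10 removed Mmp10 from all 3 comparisons, and removed Mmp12 with its call from treated hTNFtg versus WT.

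Counts of all genes with an adjusted p under 0.05 moved more. In hTNFtg versus WT, 137 became 1004 with array quality weights, 461 with robust eBayes, 381 with all 9 libraries and 618 with edgeR, and 1 to 44 with a library left out. In infliximab-treated versus untreated hTNFtg, 0 became 65, 3, 3 and 9, and in treated hTNFtg versus WT 209 became 378, 1182, 69 and 1029, 488 with a mean of at least 10, and 0 to 1 with a library left out. Calls on low genes are limited by hTNFtg replicate 1, where 3 reads stand at 18.7 normalized counts.

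Samples with the same replicate number did not deviate together in every pair (r = 0.29, -0.14 and 0.35 in hTNFtg versus WT, 0.07, 0.20 and 0.27 with infliximab, 0.10, -0.15 and 0.01 in treated hTNFtg versus WT). The main fits did not take the numbers as pairing. In treated against untreated hTNFtg, pairs with different numbers had r of -0.26 to 0.13. Whether these cultures were paired was not stated, and the r values do not settle it. With the replicate block, 4, 2 and 2 of the 10 passed the threshold and 0 genes of all had an adjusted p under 0.05 in each comparison.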
